A study of Mus musculus with 2 samples.

Results

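B cells were described among cells taken from 4T1 breast tumors with magnetic beads against GR1, the epitope shared by the myeloid surface proteins Ly6G and Ly6C. The submitters labelled these samples as GR1-positive myeloid cells. A barcode, the tag that stands for 1 droplet, was kept when it held 500 to 5000 genes and when mitochondrial transcripts made up at most 10% of its UMIs, the unique molecular identifiers that count captured transcripts. A kept barcode was called a B cell when at least 2 of the 5 genes Cd79a, Cd79b, Ms4a1, Ebf1 and Pax5 had at least 1 UMI, S100a8 and S100a9 made up under 1.5% of its UMIs, and C1qa, C1qb, C1qc and Apoe together made up under 0.5%. By this rule 62 of 5187 kept barcodes were B cells, out of 7951 barcodes in all. These gene values chose the cells, so they are given below as a description only.

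All cells came from orthotopic 4T1 tumors in BALB/c mice, of 6 to 8 weeks by the labels, and were collected before any antibody treatment. The study's methods give an older range of ages at tumor injection. The library 4T1P held cells of tumors of the parental 4T1 line, a mouse mammary carcinoma line that does not respond to anti-PD1. The library 4T1M held cells of tumors of a clone, as the study calls it, derived from 4T1 by chemical mutagenesis with MNNG, which does respond. The labels give 5 mice pooled per library, while a figure legend of the study gives fewer. Each condition was thus represented by 1 pooled library and 1 cell line, so no difference between the libraries has a replicate check, and the number of mice that gave the 62 cells was not known. The 4T1P library held 2947 barcodes and 21855657 UMIs, and the 4T1M library 5004 barcodes and 24303957 UMIs. Of these, 1726 and 3461 barcodes were kept. The libraries shared 5 barcodes, 3 of them kept, and none belonged to a B cell.

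B cells recognize antigen through a surface immunoglobulin, the B cell receptor, whose signal passes through Cd79a and Cd79b and is held back by receptors such as Cd22 and Cd72. Naive follicular cells carry IgM together with IgD and recirculate through lymphoid tissue under the control of chemokine and sphingosine phosphate receptors. After activation they can enter germinal centers, where they divide, mutate their receptor and switch from IgM to another class, and can become plasma cells, which secrete antibody. Of the transcripts of the proteins that the beads bind, Ly6g, the neutrophil antigen, had 0 UMIs in all 62 cells, and was seen in 15.9 and 16.1% of neutrophil barcodes of 4T1P and 4T1M. By 3 counts over the number of cells, a count of 0 allows up to 4.84% of such cells to have a UMI, and it says nothing of cells that carry the protein. Ly6c1 or Ly6c2 was seen in 2 of 33 B cells of 4T1P and 5 of 29 of 4T1M, against 7.05 and 8.13% of neutrophils. The 4 immunoglobulin-rich cells described below each held both, with 4 to 17 UMIs of Ly6c1 and 5 to 13 of Ly6c2. By its transcripts this is a lymphocyte population within a sort labelled as myeloid, and how it came through the sort was not tested.

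The regulatory sequence in front of 3 B cell genes, picked because it holds a match, shows the letters read by factors that these cells express. Ebf1 binds the motif TCCCNNGGGA, which reads the same on both strands. Pou2f2 and its partner Pou2af1 bind the octamer ATGCAAAT, which reads ATTTGCAT on the other strand. None of the 3 windows held both motifs. The RefSeq windows run from 250 bases before to 50 bases after the annotated start, on GRCm38.p6. Cd22 lies on the minus strand at chr7:30878979-30879278, Vpreb3 on the plus strand at chr10:75948050-75948349 and Blnk on the minus strand at chr19:40994172-40994471. Capitals mark the match, whose 5′ base lies 49, 45 and 130 bases before the start.
Cd22: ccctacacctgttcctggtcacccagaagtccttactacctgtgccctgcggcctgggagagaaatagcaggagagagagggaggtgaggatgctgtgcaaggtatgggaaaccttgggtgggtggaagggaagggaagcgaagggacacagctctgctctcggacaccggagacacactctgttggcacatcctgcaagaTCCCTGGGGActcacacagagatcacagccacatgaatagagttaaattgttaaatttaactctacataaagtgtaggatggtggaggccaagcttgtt
Vpreb3: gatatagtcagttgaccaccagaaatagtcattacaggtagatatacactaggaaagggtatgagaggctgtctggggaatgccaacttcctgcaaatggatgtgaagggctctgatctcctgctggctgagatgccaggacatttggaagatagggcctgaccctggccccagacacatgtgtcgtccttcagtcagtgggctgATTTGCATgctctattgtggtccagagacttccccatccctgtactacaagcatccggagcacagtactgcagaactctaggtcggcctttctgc
Blnk: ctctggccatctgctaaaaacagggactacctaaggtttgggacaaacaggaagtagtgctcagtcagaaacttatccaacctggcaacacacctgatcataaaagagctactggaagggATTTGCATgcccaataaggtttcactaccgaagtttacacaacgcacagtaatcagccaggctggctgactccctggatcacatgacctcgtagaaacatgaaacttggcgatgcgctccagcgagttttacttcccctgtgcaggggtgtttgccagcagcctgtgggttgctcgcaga
The EBF motif was present in 0.904% of 32851 promoter windows of this length and the octamer in 1.74%. Among the 245 genes that were at least 4-fold higher in B cells than in other kept barcodes and had a window, 12 (4.90%) held the EBF motif, against 21 of 2038 other compared genes (1.03%). The octamer was in 7 of the 245 (2.86%) and in 32 of the 2038 (1.57%). Most B cell genes held neither motif in their window. Of 24 B identity genes outside the rule with a window, 2 held the EBF motif and 2 the octamer, and of 3 rule genes 0 held either. These counts describe letters only.

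B cells were a small share of each library. They were 33 of 1726 kept barcodes in 4T1P, which is 1.91% (exact 95% binomial interval 1.32 to 2.67). In 4T1M they were 29 of 3461, which is 0.838% (0.562 to 1.20). With a mitochondrial limit of 5% the shares were 0.349% (0.0951 to 0.890) and 0.254% (0.102 to 0.524), and these intervals overlap. All intervals here cover counting error only and say nothing of the spread between mice or sorts. The share of T or NK cells was higher in 4T1P, at 4.06% of kept barcodes (70 barcodes) against 2.51% (87). Set against lymphocytes alone, B cells were 32.0% of B plus T or NK barcodes in 4T1P (23.2 to 42.0) and 29 of 116 in 4T1M (17.4 to 33.9%), and these intervals overlap. All are shares of sorted cells, and the part of the sort in them was not tested.

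Most of the 62 cells held more than the 2 genes the rule asks for. All 5 rule genes were seen in 33 of them, 4 in 20, 3 in 7 and 2 in 2, both of which came from 4T1M. The median B cell held 4407 UMIs and 1684 genes in 4T1P, and 6250 UMIs and 2266 genes in 4T1M. Kept barcodes at or over the S100 limit alone are called neutrophils, those at or over the C1q and Apoe limit alone macrophages, and those under both with at least 2 of Cd3d, Cd3e, Cd3g, Ncr1 and Klrb1c T or NK. Barcodes of each of these classes also held fewer than 2 of the 5 rule genes, and neutrophil and macrophage barcodes fewer than 2 of the T or NK genes. Neutrophil barcodes held a median of 3050.5 and 2957 UMIs and macrophage barcodes 9189 and 9438.5. Mitochondrial transcripts made up a median of 6.67% of UMIs in B cells, near the 5.72% of T or NK barcodes and above the 1.99% of neutrophils. Just outside the rule lay 6 kept barcodes with at least 2 rule genes whose S100 share (1.98, 2.78 and 3.97%) or C1q and Apoe share (1.21, 2.06 and 2.92%) passed its limit, and 20 kept barcodes within both limits with 1 rule gene.

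The 5 genes of the rule were nearly confined to these barcodes, which the selection largely fixed. Levels are given as CPM, the UMIs of a gene summed over the cells of a class for each 1000000 UMIs of that class. On GRCm38 with the GENCODE annotation, Cd79a (chr7:24897381-24902197, plus strand), the signaling chain of the receptor, had a median of 7 UMIs per cell in both libraries, with a range of 2 to 20 in 4T1P and 0 to 24 in 4T1M. Ebf1 (chr11:44617317-45008091, plus strand), a factor that commits cells to the lineage, had 2 to 24 UMIs per cell in 4T1P with a median of 10, and 0 to 15 in 4T1M with a median of 8. Both libraries therefore gave overlapping ranges for the genes that chose the cells.

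Genes of B cell identity outside the rule were also higher in these cells. Of 2877 genes with at least 20 UMIs in the 62 cells, 335 (11.6%) were at least 4-fold higher than in the 5125 other kept barcodes. Of the 38 tested B identity genes that the rule did not use, 35 were, and their median log2 ratio was 5.64, against 0.35 over all 12598 genes. Since the cells were selected on genes that go with this list, the count describes the selection and is not evidence of its own. Fcer2a (CD23), the low affinity IgE receptor of follicular cells, stood at 246 CPM in B cells against 0.157 in other barcodes. Cr2 (CD21), the complement receptor, stood at 149 against 0.0942. Tnfrsf13c, the receptor for the survival factor BAFF, stood at 390.1 against 1.22, and it was seen in 23 of 33 and 25 of 29 cells. Fcmr (226 against 0.282), Pou2af1 (231 against 0.314) and Vpreb3 (157 against 0.345) followed the same pattern. Each of these genes was at under 2 CPM outside the B cells.

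**Figure D1:**
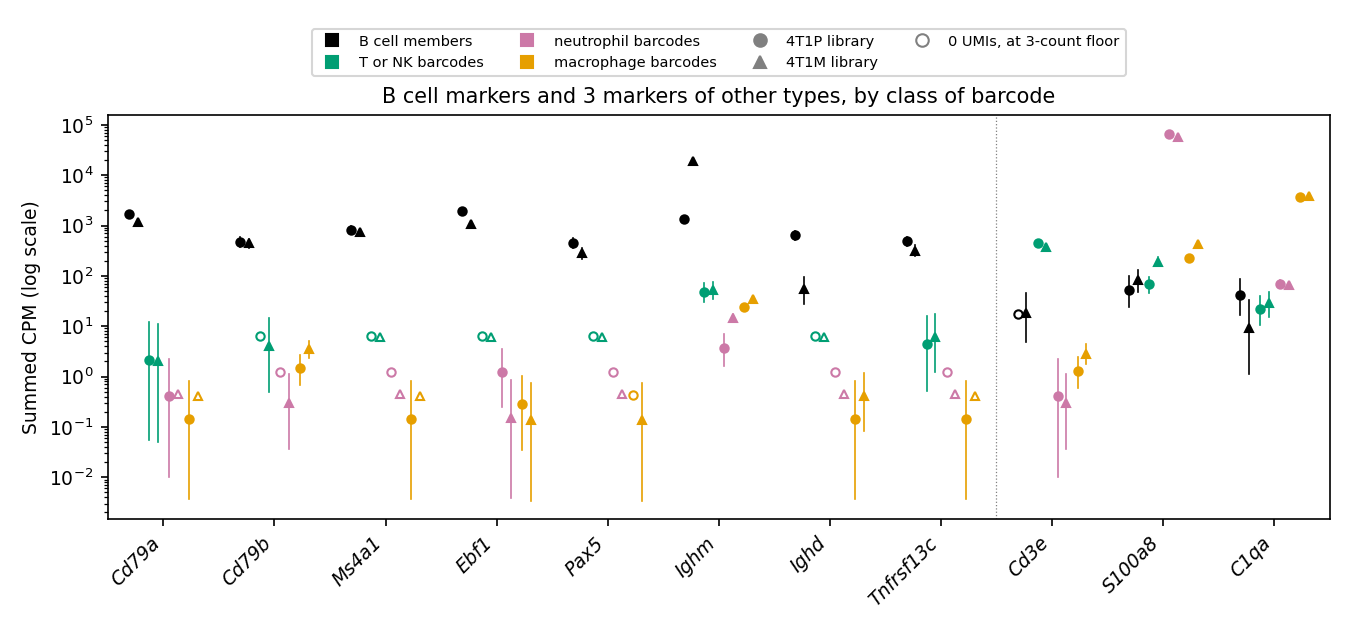
Summed CPM (log axis) of the 8 B cell markers and of Cd3e, S100a8 and C1qa in B cell, T or NK, neutrophil and macrophage barcodes of 4T1P (circles) and 4T1M (triangles), with exact 95% Poisson intervals and open symbols for 0 UMIs drawn at the floor of 3 counts. B cells stand highest for all 8 B markers, and S100a8, which the rule limits, stands far lower in them than in neutrophils. The rule chose B cells on Cd79a, Cd79b, Ms4a1, Ebf1 and Pax5, and barcodes of the other classes held fewer than 2 of these. The order for these 5 genes thus describes the selection.

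Among the 25 genes with the largest ratio to other barcodes were also some that are less often used as markers. Gm31243, an unnamed locus, had 20 UMIs in 15 B cells and 0 elsewhere, at least 545-fold higher against a floor of 3 counts. Bfsp2, a beaded filament gene first known from the lens, stood at 59.0 CPM against 0.188 and was seen in 17 cells. Dennd5b stood at 128 against 0.502 and Rab30, a small GTPase of the Golgi, at 133 against 0.690. Chst3, a chondroitin sulfotransferase, was at 53.9 against 0.282. At the other end, Cstdc4, Stfa2l1, Msr1, Hdc, Ccl9, Trem1 and Upp1 had 0 UMIs in all 62 cells and were at least 39.3-fold lower than in other barcodes, against a floor of 3 counts. Cd14 had 2 UMIs, Lcn2 had 1, and S100a8, which the rule limits, had 27.

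Genes behind the B cell receptor fell into those restricted to B cells and those shared with myeloid cells. The BCR signaling list, which includes 2 rule genes, had a median log2 ratio of 1.19 over 27 genes, and 9 of the 25 genes with at least 20 UMIs were 4-fold higher, against 11.6% of all compared genes, a count in which the selection fixed the 2 rule genes. The kinase Blk stood at 74.4 CPM against 0.126, the adaptor Bank1 at 259 against 3.67 and the linker Blnk at 344 against 28.1. In contrast, the kinase Syk stood at 290.0 against 218, Lyn at 151 against 227 and the paracaspase Malt1 at 636 against 945. Against T or NK barcodes, Syk was 6.31 and Lyn 5.87 log2 units higher in B cells. Of the inhibitory receptors, Siglecg (151 against 1.51) and Cd22 (131 against 6.15) were largely restricted to B cells, whereas Cd72 (177 against 62.7) was also found in macrophages. Fcgr2b, the inhibitory Fc receptor, was lower in B cells (108 against 527), with 25 of its 42 UMIs in the single Cxcl13-rich barcode described below and levels of 34.5 to 60.9 in the other groups of B cells, and Lair1 and Pirb had 0 UMIs.

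The transcription factors of the lineage formed a graded series. Of 19 with at least 20 UMIs, 15 were 4-fold higher in B cells, the rule genes Ebf1 and Pax5 among them, where 11.6% of all compared genes were. Nothing is read from this count, as the cells were selected on genes of this lineage. Mef2c stood at 1124 CPM against 73.1, Foxo1 at 272, 13.6-fold higher, Bach2, a repressor that holds back plasma cell fate, at 267 against 13.1, and Ikzf3 (Aiolos) at 185 against 3.67. Spib (92.4 against 2.32) and Bcl11a (100.1 against 2.79) had fewer UMIs and ratios over 35. Irf8, which macrophages also use, was 2.24-fold higher, where 36.4% of the 2877 compared genes were at least 2-fold higher. Xbp1, the factor of secretory cells, was not higher in B cells as a whole (113 against 163), and Prdm1 (Blimp1) had 12 UMIs, all in the cells rich in immunoglobulin described below.

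B cells carried MHC class II genes. Cd74, the invariant chain, had 10 to 136 UMIs per cell in 4T1P and 5 to 152 in 4T1M, with a median of 53 in both. It was seen in all 62 cells, and stood at 9721 CPM against 9578 in macrophages, 255 in neutrophils and 41.9 in T or NK barcodes. H2-Aa, a class II alpha chain, had a median of 25 UMIs per cell in 4T1P (0 to 45) and 29 in 4T1M (0 to 71). The class II activator Ciita was 5.86-fold higher than in other barcodes (167 against 28.5 CPM). Costimulators were moderate, with Cd86 at 272 against 115 and Cd83 at 521 against 169.9. The list as a whole had a median log2 ratio of 1.19 over 19 genes, with 16 above 0 and 3 below, where 39.0% of all genes lay below.

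Receptors for survival, position and cytokines were uneven. Tnfrsf13b (TACI) stood at 84.7 CPM against 27.7, whereas Cd40 had 4 UMIs in 4T1P and 9 in 4T1M and Cd27 had none. Of the ligands for these receptors, Tnfsf13b (BAFF) had 0 and 2 UMIs in the B cells and Tnfsf13 (APRIL) none. In other barcodes Tnfsf13b stood at 6.96 and 14.3 CPM in 4T1P and 4T1M, and Tnfsf13 at 60.3 and 40.9. Among homing receptors, Cxcr5, which leads cells to follicles, stood at 69.3 against 1.04, Ccr7 at 305 against 25.8, S1pr1, the exit receptor, at 100.1 against 15.9 and Gpr183 (EBI2) at 246 against 58.8. Ccr7 and S1pr1 were lower in B cells than in T or NK barcodes, by 1.10 and 1.15 log2 units. The cytokine receptor list had a median log2 ratio of -0.41 over 15 genes, 8 of them with at least 20 UMIs in the B cells. Il21r, the receptor for the helper cytokine IL21, stood out at 169 against 20.1.

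Interferon-stimulated genes were low in the B cells of both libraries. The interferon response list of 43 genes summed to 2211 CPM in B cells of 4T1P and 1757 in those of 4T1M, against 3650.4 and 6570.2 in other barcodes. Its median log2 ratio to other barcodes was -1.73, and 31 of the 43 genes were at least 2-fold lower, where 19.5% of all 12598 genes were. Genes entered this comparison with at least 20 UMIs in the B cells or in the other barcodes. Only 9 of the 43 reached 20 in the B cells, and the others entered through the other barcodes alone. The median and the count thus lean on genes with few or 0 UMIs in the B cells, and nothing is read from the count. Isg15, a ubiquitin-like modifier, had 1 UMI in 4T1P and 15 in 4T1M, of which 13 lay in 1 cell. It stood at 5.88 and 68.3 CPM in B cells, 45.7 and 133 in T or NK barcodes, 1021 and 1375 in neutrophils and 351 and 836 in macrophages. Rsad2 (viperin) had 1 and 2 UMIs in B cells, and Ifit1 and Oas1a had 0.

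Of the interferon receptors, the chains Ifnar1 and Ifngr1 were measured in B cells at a level like that elsewhere. Ifnar1, a chain of the type I interferon receptor, stood at 92.4 CPM against 97.1 in other barcodes, and Ifngr1 at 121 against 162. Of the 43 genes of the list, 37 had a UMI in the B cells and 9 had at least 20, where 11127 and 2877 of all 32285 genes did. Among these were Ifi27l2a (493 against 707), Ly6e (234 against 288) and Sp100 (213 against 113). Ly6e was lower in 4T1M than in 4T1P B cells (168 and 318 CPM), while in macrophages it was higher in 4T1M (524 and 169). This opposite order was not tested. The list of interferon gamma and class I genes differed less, with a median log2 ratio of -0.62 over 24 genes. Of these, 9 were at least 2-fold lower, where 19.5% of all genes were, and 13 had at least 20 UMIs in the B cells. The class I heavy chain H2-K1 stood at 1193 against 1171 and the light chain B2m at 1381 against 1812. Cd274 (PD-L1) was 4.21-fold lower (100.1 against 421).

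**Figure D2:**
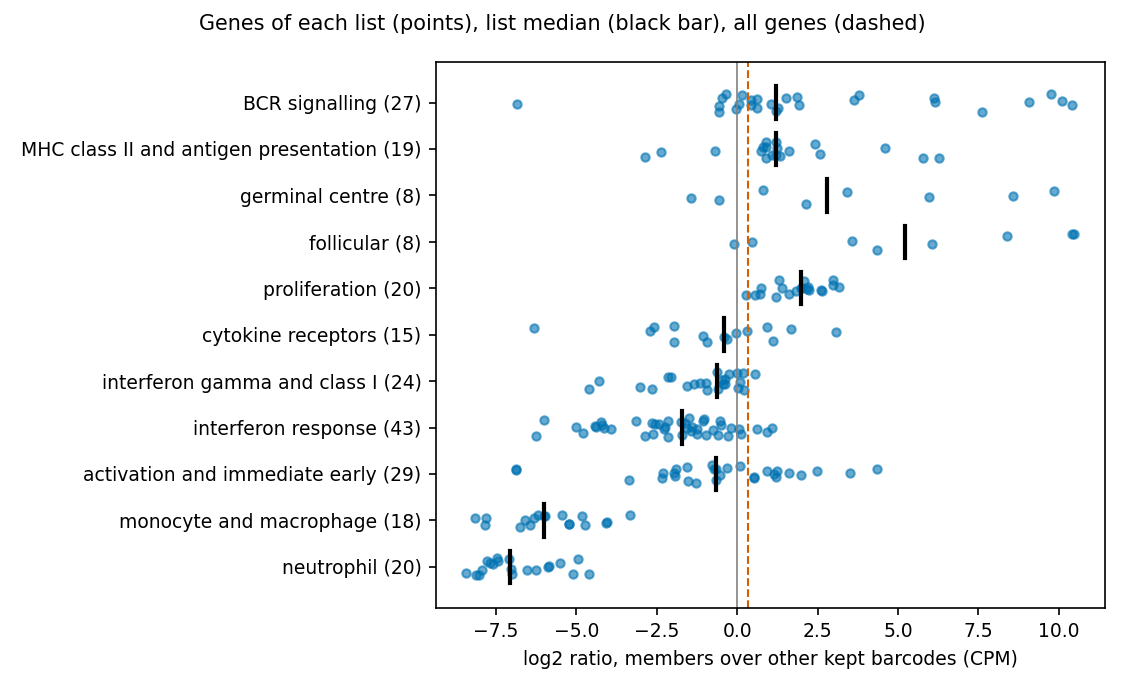
Log2 ratio of CPM in the 62 B cells to all other kept barcodes for each gene of 11 lists (points), with the list median (black bar) and the median of all genes, 0.35 (dashed line). Genes with at least 20 UMIs in the B cells or in the other barcodes are drawn. Of the 11 lists drawn, which leave out the rule genes and the other B identity genes, follicular genes lie highest, with a median of 5.21, and the interferon response, macrophage and neutrophil lists lie left of 0, with medians of -1.73, -6.00 and -7.08.

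Neutrophil and macrophage markers were low but not absent, and some lists of other cell types were as high as elsewhere. The 20 neutrophil genes summed to 388 CPM in 4T1P and 433 in 4T1M B cells, against 62207 and 94411 in other barcodes. The most abundant, S100a9, had 47 UMIs, and Ly6g, Cxcr2, Hdc and Trem1 were at 0. The 18 monocyte and macrophage genes summed to 882 and 710.2 against 27645 and 20259.8, with Apoe, which the rule limits, at 200 UMIs and Ccr2, Ms4a7 and Mrc1 at 0. The 15 T cell genes had 19 UMIs in all, of which Lck, a kinase, had 7, and Cd3d, Trac, Trbc1, Trbc2, Cd4 and Cd8a had 0. Epcam, the most abundant of 10 tumor epithelium genes, had 17 UMIs, 2 in 4T1P and 15 in 4T1M, and that list summed to 11.8 and 91.1 CPM, against 51.3 and 68.2 in other barcodes. The plasmacytoid dendritic cell list summed to 1078 against 676, with Irf8, which B cells also express, the most abundant at 162 UMIs. The conventional dendritic cell list summed to 126 against 114, and the stroma and endothelium list to 74.4 against 50.3, with Pecam1 at 21 UMIs. The part of these in the results was not tested. The NK, mast cell and erythroid lists had 3, 0 and 5 UMIs. No doublet caller was run. Leaving out the 18 cells with at least 2 genes of another type gave B cell shares within the intervals above. Of the medians of 5 lists between the libraries, each moved without these 18 cells, 4 towards or past 0 and 1 away from it, and all are given with the comparison below, beside the median over all genes.

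Within the 62 cells, groups were set apart after the values had been seen, so their sizes are descriptions and the genes that define a group are no finding about it. The heavy chain genes give the plainest order. Ighd (chr12:113406604-113416324, minus strand), the constant region of IgD, was found in 25 of 33 cells of 4T1P and 5 of 29 of 4T1M. Ighm (chr12:113418558-113422730, minus strand), the constant region of IgM, was found in 29 and 16 cells. Ighg1 (chr12:113325240-113330523, minus strand), a switched class, was found in 5 and 15. The light chain Igkc (chr6:70726435-70726966, plus strand) was found in 61 of 62, every cell had a light chain, and lambda exceeded kappa in 1 cell of each library. In neutrophils Ighm was seen in 0.820% of 4T1P and 5.22% of 4T1M barcodes and Igkc in 0.656 and 9.97%, so a single UMI of these genes in 4T1M is weaker evidence than one of Ighd.

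The IgD-positive cells had the highest levels of genes of recirculating cells. There were 30, with 2181 to 5552 UMIs per cell and a median of 4082. Ighd had 1 to 10 UMIs in them with a median of 4. Ighm was seen in 29, and Ighg1, Jchain, Rgs13 and Mki67 in none of the 30, which allows up to 10.0% of such cells to have a UMI of each at this depth. Their Ccr7 level was 690.5 CPM, against 95.7 in the cells rich in germinal center genes and 299 in the remaining cells. Klf2, a factor that keeps lymphocytes recirculating, stood at 1187 against 365 and 288, and S1pr1 at 244 against 26.1 and 57.5. Cd72 (446 against 34.8 and 138) and Cd22 (286 against 95.7 and 69.1) were also highest there.

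At least 3 germinal center genes were seen in 14 cells. The list had 11 genes, among them Rgs13, a regulator of chemokine signaling. The Cxcl13-rich barcode described below was 1 of the 14 and was kept apart, which left 13 cells rich in germinal center genes. They were 4 of 33 cells in 4T1P and 9 of 29 in 4T1M, with 5752 to 12805 UMIs and a median of 7854, each deeper than every IgD-positive cell. Rgs13 was seen in 12 of them with a median of 4 UMIs. Ighd was seen in none, which allows up to 23.1% of such cells to have a UMI, Ighm in 6, Ighg1 in 11 and Jchain, the chain that joins antibody units, in 12. Mki67 was seen in 9 of the 13 and in 0 of the 30 IgD-positive cells, at 957 and 0 CPM, and 4 cells with 43, 32, 21 and 9 UMIs held nearly all of it, while the other 5 had 1 UMI each. Top2a, with 30, 21, 12 and 9 of its 80 UMIs in the same 4 cells, stood at 696 against 42.1, Stmn1 at 600.4 against 25.3 and Hmgb2 at 2549.6 against 505. Bcl6, the factor that programs germinal centers, did not set the group apart, with 7 UMIs in 4 of its cells and 9 in 6 of the IgD-positive cells. The levels of Mki67 and Top2a in this group thus rest mainly on 4 of its cells, while Hmgb2 was seen in all 13. Gpr183, a receptor that germinal center cells are known to lose, stood at 26.1 against 480.0 in IgD-positive cells.

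At equal depth the libraries still differed in the same direction, and some differences were smaller. Each cell was thinned at random to 2000 UMIs, which left out no B cell and 96 of 610 and 332 of 1685 neutrophils. Ighd was then seen in 72.7% of 4T1P cells (54.5 to 86.7) and 10.3% of 4T1M cells (2.19 to 27.4), where the unthinned shares were 75.8 and 17.2%. No neutrophil barcode had an Ighd UMI, which by 3 counts over the number of barcodes allows up to 0.492 and 0.178% to have one at median depths of 3050.5 and 2957 UMIs. Thinned cells with at least 3 of 8 follicular genes were 26 of 33 in 4T1P (78.8%, 61.1 to 91.0) and 6 of 29 in 4T1M (20.7%, 7.99 to 39.7). Thinned cells with at least 3 germinal center genes were 1 of 33 and 7 of 29, and those with at least 2 were 3 of 33 (9.09%) and 11 of 29 (37.9%). For Rgs13 the shares were 9.09 and 37.9% before thinning and 9.09% (1.92 to 24.3) and 20.7% (7.99 to 39.7) after it, and the latter intervals overlap. For Jchain the thinned shares were 12.1% (3.40 to 28.2) and 41.4% (23.5 to 61.1), against 0.195 and 1.40% of neutrophils. The shares for Ighg1 were 12.1 and 44.8%, against 0 of 514 and 27 of 1353 neutrophils, which are given as the background of this measure. The intervals of the libraries also overlap for Jchain, for Ighg1 and for both counts of germinal center genes.

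**Figure D3:**
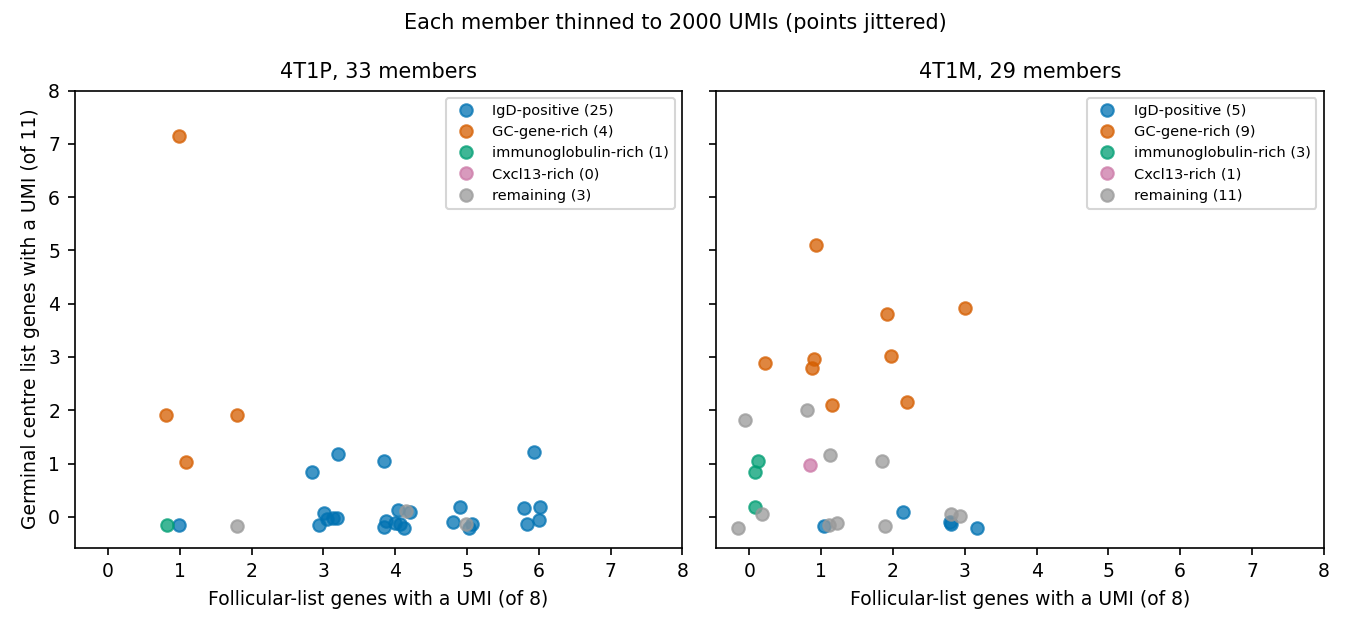
Number of follicular list genes (horizontal, of 8) and germinal center list genes (vertical, of 11) with a UMI in each B cell after thinning to 2000 UMIs, 4T1P on the left and 4T1M on the right, colored by the group of the cell. Cells of 4T1P hold a median of 4 follicular and 0 germinal center genes, and cells of 4T1M a median of 1 of each.

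Immunoglobulin filled a large part of 4 cells and little of the rest. The share of UMIs from immunoglobulin genes had a median of 0.673% in 4T1P and 0.587% in 4T1M, and ran from 42.7 to 73.5% in these 4. The 4T1P cell held 9070 UMIs with 1070 for Ighg2c and 137 for Ighg2b. Since the genome used is that of C57BL/6 and the mice were BALB/c, the gene behind the Ighg2c UMIs is uncertain. A 4T1M cell, of 19955 UMIs, held 2756 for Ighg1, 5648 for Igkc and 1099 for Jchain. Another, of 22681, held 4114 for Ighm and 6342 for Igkc. The last, of 4097 UMIs and 508 genes, held 534 for Ighg3 and 2415 for Igkc. Each of the 4 thus carried mainly a different heavy chain gene. Pax5, Cd22, Ccr7, Cd72, Fcer2a and Ciita, all genes that plasma cells are known to lose, had 0 UMIs in the 4, and H2-Aa had 2. Other B cell genes were still seen, with Ebf1 in 3 of the 4 (up to 7 UMIs), Ms4a1 in 2 (1 UMI each) and Cd74 in all 4 (5 to 71 UMIs). The endoplasmic reticulum gene Derl3 stood at 699 CPM against 0 in each of the IgD-positive, germinal center gene and remaining groups. It was seen in 3 of the 4, with up to 25 UMIs, and Prdm1 in 2.

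**Figure D4:**
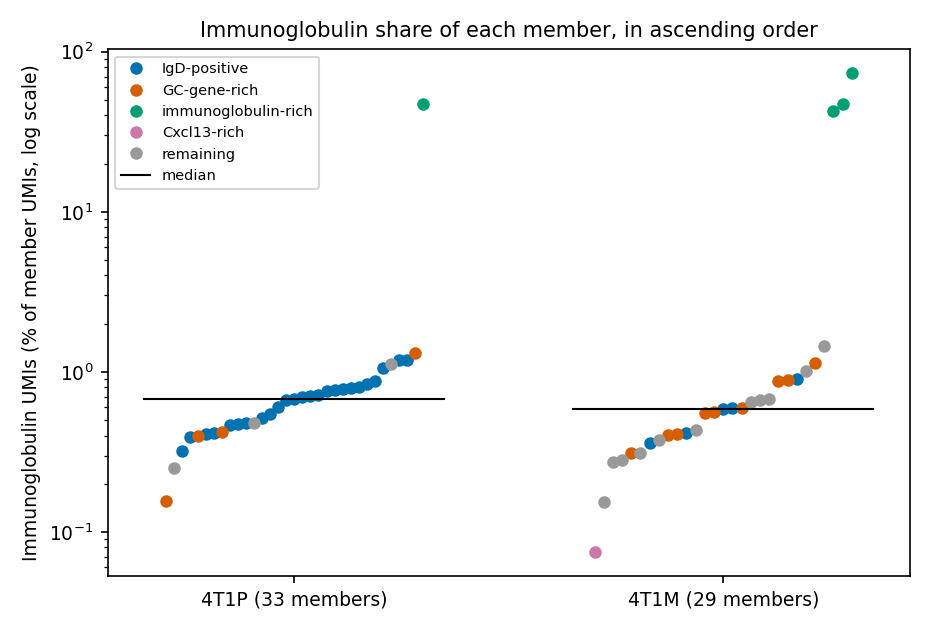
Percent of UMIs from immunoglobulin genes (log axis) in each B cell of 4T1P and 4T1M, ordered from low to high. A cell of 4T1P and 3 of 4T1M lie at 42.7% or higher, and the medians of 0.673 and 0.587% lie close together.

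A 4T1M barcode met the rule and went against the label, and another held some of the same genes. It held 13307 UMIs and 4108 genes, with 3 UMIs of Ms4a1 and 6 of Ebf1 but none of Cd79a, Cd79b or Pax5, and 0.0751% immunoglobulin. Cxcl13 (chr5:95956951-95961068, plus strand), the chemokine that draws Cxcr5-positive cells into follicles, had 192 UMIs in it. Mfge8 had 153, Clu 82, Postn 68, Enpp2 23, Vcam1 18, Fcer2a 17, Coch 9, Cr2 8 and Madcam1 8. It is called the Cxcl13-rich barcode. The other, also of 4T1M, held 28 UMIs of Cxcl13, 12 of Clu, 7 of Coch, 4 of Mfge8 and 4 of Postn, but also 10 of Cd79a, 8 of Ms4a1, 9 of Ebf1 and 4 of Pax5. It was left among the remaining cells. The remaining 14 cells, 3 in 4T1P and 11 in 4T1M, fell in none of these groups, and held Ighm in 8, Ighg1 in 5, Jchain in 3 and Fcer2a in 6.

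Between the libraries, the summed B cells were then compared gene by gene. These sums mix the groups above, of which IgD-positive cells were 25 of 33 in 4T1P and 5 of 29 in 4T1M. Whether levels differed between the libraries within a group was not tested. Of 2877 genes with at least 20 UMIs, 192 (6.67%) were at least 2-fold higher in 4T1M and 251 (8.72%) at least 2-fold lower. The median log2 ratio of 4T1M to 4T1P over all these genes was -0.12 and moved to between -0.02 and 0.00 under edgeR or DESeq2 scaling factors. The split was then 232 higher to 199 lower with edgeR and 243 to 187 with DESeq2, so the side with more genes depends on the scaling. List medians below are read against -0.12. As 4 immunoglobulin-rich cells and the Cxcl13-rich barcode weigh on the sums, values without these 5 are also given, with a median over all genes of 0.01. Of the 2577 genes then compared, 1406 were higher in 4T1M and 1171 lower.

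Follicular genes were lower in 4T1M throughout. All 8 had a ratio under 1, where 41.7% of all genes had one over 1, and 5 were at least 2-fold lower. Their median was -1.14, and -1.17 without the 5 barcodes, again with 8 of 8 lower. Ighd stood at 641 CPM in 4T1P and 54.6 in 4T1M, a log2 ratio of -3.50 (exact 95% interval -4.55 to -2.69) and of -3.12 without the 5. Its values per cell ran from 0 to 10 in 4T1P, with a median of 3, and from 0 to 4 in 4T1M, with a median of 0, so the ranges overlap. Klf2 lay in the same direction, at 970.4 and 255 (-1.92, interval -2.39 to -1.48), and so did Ccr7, at 488 and 164 (-1.56, -2.18 to -0.99).

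Homing and inhibitory receptors followed the follicular genes. Of 8 homing receptors, 7 had a lower level in 4T1M and 6 were at least 2-fold lower, with a median of -1.18 and of -0.82 without the 5. Of all genes, 58.3% were lower and 8.72% at least 2-fold lower. S1pr1 stood at 165 and 50.1 CPM (-1.68, interval -2.87 to -0.67), and Cxcr4 at 335 and 118. Of 9 inhibitory receptors and phosphatases, 8 were lower and 4 at least 2-fold, with a median of -0.71. Cd72 stood at 335 and 54.6 (-2.57, -3.65 to -1.70) and was seen in 26 of 33 and 9 of 29 cells. Cd22 stood at 229 and 54.6 (-2.03, -3.14 to -1.11). The phosphatase Ptpn6, which these receptors recruit, was at 124 and 114. The BCR signaling list had 23 of 25 genes lower, with a median of -0.43, which came to -0.13 and 15 of 25 without the 5 barcodes.

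Germinal center and plasma cell genes lay mostly on the other side, and proliferation genes on both. The 3 germinal center genes with enough UMIs had a median of 1.22, and 1.52 without the 5. Of these, Basp1 is also a myeloid gene, at 1322 CPM in 4T1P and 1801 in 4T1M neutrophils against 229 and 606 in the B cells. Rgs13 stood at 76.5 CPM in 4T1P and 182 in 4T1M (1.22, interval 0.32 to 2.28), and was seen in 3 and 11 cells, or 3 and 6 at equal depth. Of 9 plasma cell genes, 7 were higher and 4 at least 2-fold, where 41.7 and 6.67% of all genes were, with a median of 0.94 that came to 0.36 without the 5. Jchain stood at 1117 and 8855 (2.98, 2.77 to 3.21) and at a ratio of 1.30 without the 5. Mzb1, a chaperone of antibody assembly, stood at 312 and 1379, with ratios of 2.13 and 0.61. Of 10 proliferation genes, 6 were higher, 5 of them at least 2-fold, and 4 lower, 1 at least 2-fold, with a median of 0.62. Without the 5 barcodes 7 were higher and 2 lower, with a median of 0.48. Of all genes, 6.67 and 8.72% were at least 2-fold higher and lower. Top2a stood at 82.3 and 351 (2.05, 1.26 to 3.03) and Mki67 at 276 and 296 (0.09). Of the 4T1P UMIs of Mki67, 43 lay in 1 cell.

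Most Ighm UMIs lay in 1 cell. Ighm stood at 1323 CPM in 4T1P and 19171 in 4T1M, a log2 ratio of 3.85 (3.66 to 4.06), and 92.7% of its UMIs over both libraries lay in 1 cell of 4T1M. Without the 5 barcodes the ratio was -1.35. Its median per cell was 5 UMIs in 4T1P and 1 in 4T1M. Likewise, 96.6% of Ighg1 UMIs lay in 1 cell of 4T1M. Ighg1 stood at 94.1 and 12916 CPM with a ratio of 7.06 (6.40 to 7.91), and at 2.37 without the 5, so its direction stayed. Interval widths do not reflect this kind of weight, since they treat each UMI as independent.

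At the ends of the list, 10 genes on the high side and 10 on the low side differed in how many cells carried them. On the high side, Creld2 (4.15) and Hsp90b1 (2.65), both of the endoplasmic reticulum, came to 0.01 and 0.15 without the 5. Slpi, a secreted protease inhibitor, stood at 323 and 2754 CPM (3.08, and 2.14 without the 5) and was seen in 4 and 10 cells. Marcksl1 stood at 23.5 and 164 (2.65, and 2.51) and was seen in 4 of 33 and 15 of 29 cells. Mt1 (3.83), Cited2 (3.33) and S100a6 (2.47) were also higher, and came to 1.37, 1.29 and 3.11 without the 5. Of their UMIs, 65.1%, 37.5% and 65.9% lay in 1 cell.

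On the low side the ratios moved little without the 5 barcodes. B3gnt5, a glycosyltransferase, stood at 318 and 41.0 CPM (-2.89, and -2.51 without the 5), Cd55, a complement regulator, at 276 and 45.5 (-2.55, and -2.44) and Gimap6, a GTPase of lymphocyte survival, at 306 and 68.3 (-2.13, and -2.17). Gimap6 was seen in 24 of 33 and 5 of 29 cells. Add3 (-2.64), Crbn (-2.45), Klf4 (-2.43) and Pkib (-2.26) completed the set with Ighd, Cd72 and Cd22. The lower genes were thus seen in many 4T1P cells each, with 15 to 26 of 33 cells carrying them.

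**Figure D5:**
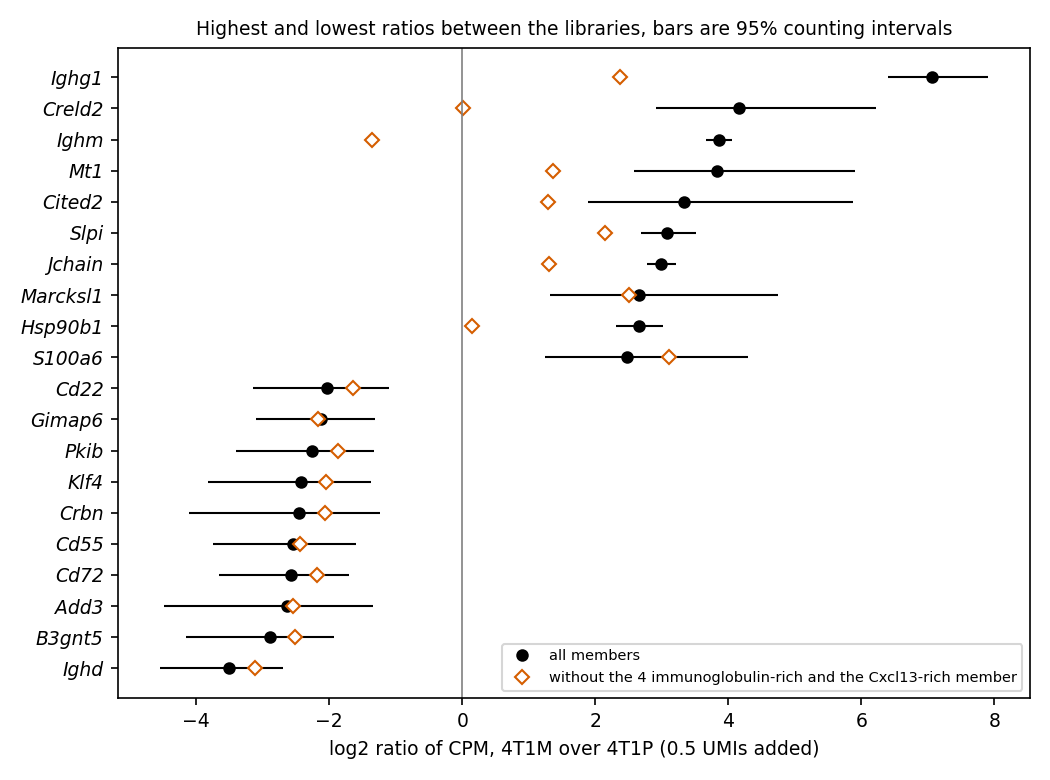
Log2 ratio of CPM in B cells of 4T1M to those of 4T1P for the 10 highest and 10 lowest genes, with exact 95% intervals for counting error (bars) and the ratio without 5 barcodes (open diamonds). Diamonds lie at 0.01 for Creld2, 0.15 for Hsp90b1 and -1.35 for Ighm, and at -1.65 or lower for all 10 low genes.

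Antigen presentation, activation and interferon lists differed in direction and in how far they held without the 5 barcodes. MHC class II genes had a median of -0.45, with 14 of 15 lower and none by 2-fold, and -0.10 with 11 of 15 lower without the 5 barcodes. Of all genes 58.3% were lower, and 1171 of 2577 were without the 5 barcodes. Cd74 stood at 11322 and 8482 CPM (-0.42, interval -0.51 to -0.32), and at -0.10 without the 5. Activation and immediate early genes had a median of -0.13 over 23 genes, with 10 higher and 13 lower, and -0.35 with 7 higher and 15 lower without the 5. With at least 3 rule genes per cell it was -0.53. Without the Cxcl13-rich barcode alone it was -0.55, and without the 4 immunoglobulin-rich cells alone 0.11, so its direction was not settled. Nr4a1, which antigen receptor signaling induces, was among the lower, at 599.9 and 182 (-1.71, -2.29 to -1.18). The interferon response list had a median of -0.60 over the 9 genes with enough UMIs, and -0.67 without the 5. Of the 9 genes 8 were lower in 4T1M, where 58.3% of all genes were. The interferon gamma and class I list had a median of 0.26, and -0.02 without the 5, with 8 of 13 higher where 41.7% of all genes were. B2m stood at 1241 and 1489 (0.26, 0.01 to 0.52). Survival receptors had a median of 0.03 over 6 genes. Without the 18 cells with genes of another type, the median over all genes rose from -0.12 to 0.06. Medians then rose to -0.07 for MHC class II, -0.04 for B cell receptor signaling (against -0.43) and -0.35 for the interferon response. Those for interferon gamma and class I and for activation and immediate early genes fell instead, to -0.05 and -0.26.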

How the data were processed

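Tumor cells isolated with GR1 beads were profiled by 10x Genomics droplet sequencing. The authors used Cell Ranger, version 4.0.0 in the submitters' processing notes, with the mm10 genome, and the deposited values are raw UMI counts for 32285 genes, without normalization. The B cells, the gene lists and the groups within the B cells were chosen with earlier results of these data known. Counts were summed over the barcodes of a class and scaled to CPM (per 1000000 UMIs). Between the libraries, and for counts of genes at least 2-fold or 4-fold higher than in other barcodes, genes needed at least 20 UMIs in the B cells of both libraries together. List medians and other counts of ratios to other barcodes took genes with at least 20 UMIs in the B cells or in the other barcodes. Ratios used a pseudocount of 0.5 UMIs. Named genes were the top 25 by ratio to other kept barcodes, the bottom 10 of those at 300 CPM or more elsewhere, and the 10 highest and 10 lowest ratios of 4T1M to 4T1P seen in 20% of the cells of a library with at least 30 UMIs and an interval leaving out a ratio of 1. Genes of the lists are named besides. With 1 library per condition no test was possible. Intervals are exact at 95% (Clopper-Pearson, Poisson and conditional binomial). Limits beside a count of 0 are instead 3 counts over the number of cells and limit cells with a UMI, not cells expressing the gene. The calculations were tested on simulated data. Python 3.11.15, numpy 2.4.6, scipy 1.17.1, pandas 2.3.3 and matplotlib 3.10.9 were used, with R 4.3.3, edgeR 4.0.16 and DESeq2 1.42.0 for scaling factors only. Promoter windows are from RefSeq on GRCm38.p6.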

Additional observations from a re-analysis of the deposited data

Results flagged for a closer look

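Outside the limits on genes and mitochondrial UMIs, 8 barcodes of 4T1P and 6 of 4T1M met the other terms of the B cell rule. They drew attention as a B cell signal in barcodes outside the main comparisons, above the 3 counts that a count of 0 allows. Of these 14, 13 were over the mitochondrial limit, with shares of 2.36 to 42.5% of UMIs over the 14, and their median depth was 1531.5 UMIs. Some were counted under looser limits, with 36 B cells in 4T1P and 32 in 4T1M at a mitochondrial limit of 20%.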

How the results depend on the processing

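No paired analysis was possible because each condition had 1 library. Of 150 values recomputed under other settings, 133 stayed within their interval or within 1.5 times. For shares of cells this was the counting interval. For the medians of 5 lists its ends were the medians of the ends of single-gene intervals, which is not an interval of the list median. It was wide, so staying within it says little of how stable these medians were. That of MHC class II stayed within it, at -0.07 against -0.45. Within those intervals some values changed sign. The median of interferon gamma and class I genes (0.26) was -0.05 without the 18 cells with genes of another type and -0.02 without the 5 barcodes, and that of activation genes (-0.13) was 0.11 without the 4 immunoglobulin-rich cells. The larger side of the 2-fold split turned too, at 232 higher to 199 lower with edgeR factors, 243 to 187 with DESeq2 and 234 to 189 with totals without immunoglobulin genes. A mitochondrial limit of 5% kept 11 of the 62 B cells, at 0.349% of 4T1P and 0.254% of 4T1M barcodes, with overlapping intervals. Of those, Ighd was then seen in 100% (4 of 4) in 4T1P, Jchain and Ighg1 in 0 of 4, and Ighg1 in 71.4% (5 of 7) in 4T1M. The genes at least 2-fold higher in 4T1M (192) numbered 2676 with a minimum of 1 UMI, 60 with a minimum of 50 UMIs and 125 without the 18 cells with genes of another type. Those at least 2-fold lower (251) numbered 2363, 73 and 121 under these settings, and 155 without the 4 immunoglobulin-rich cells. The genes at least 4-fold over other barcodes (335) numbered 2296 with a minimum of 1 UMI, 163 with a minimum of 50, 223 from 4T1P alone and 218 from 4T1M alone. The settings without named barcodes, the shares of cells with a gene and the lower mitochondrial limit for them were chosen after seeing the data. A second random thinning gave Ighg1 in 34.5% of 4T1M cells. Depth limits the rest: 62 cells hold 389679 UMIs, so genes under 20 UMIs in the B cells were not compared between the libraries, and intervals leave out the variation between mice.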

Other observations

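Lists of other B cell subsets differed. Of the marginal zone list, 9 of 11 genes had a UMI, and Mzb1 held 356 of its 513 UMIs, 225 of them in the 4 immunoglobulin-rich cells. Of the B-1 list 9 of 13 genes had a UMI, of the regulatory list 10 of 14, of the immature and transitional list 5 of 13 and of the atypical list 3 of 9. Of all 32285 genes 11127 had one, a share near those of the immature and atypical lists. Of the immature and transitional list, Rag1, Rag2, Vpreb1, Igll1, Dntt, Il7r and Sox4 had 0 UMIs in the 62 cells, and Vpreb3, which mature cells also express, had 61 UMIs. Of the B-1 list, Cd5 had 0 UMIs, 11 of 12 genes were lower than in other barcodes, where 39.0% of all genes were, and Plac8 stood at 210.4 CPM against 376. Plac8 was absent from the cells rich in germinal center genes and stood at 354 in IgD-positive and 449 in the remaining cells. Of the atypical B cell list, Tbx21, Itgax and Cxcr3 had 0 UMIs. Of the regulatory B cell list, Il10 had 0 UMIs in 4T1P and 2 in 4T1M, and Tgfb1, which is not particular to B cells, stood at 249 against 159. The regulatory, B-1, atypical, immature and marginal zone lists had median log2 ratios to other barcodes of -2.36, -0.77, -3.76, -1.10 and 0.47, against 0.35 over all genes. Of these lists, in this order, 2, 5, 2, 2 and 3 genes had at least 20 UMIs in the B cells. Their other compared genes entered through the other barcodes alone.

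A kept barcode of 4T1M outside the B cell rule held 21788 UMIs, of which 61.8% came from immunoglobulin genes. Igkc had 10316 UMIs in it, Ighg1 2891, Jchain 1186 and Mzb1 69, and Cd79a was the only one of the 5 rule genes seen, with 6 UMIs.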
